A study of Mus musculus with 12 samples.

Results

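Marker genes of macrophages and other myeloid cells were followed in RNA from the mouse corneal endothelium, the cell layer on the inner face of the cornea. The 37 genes were taken by symbol from a count table of 32761 genes, and all 37 were found. They were sorted by role into 6 genes shared by most leukocytes, 2 transcription factors, 9 genes of macrophage identity, 5 adaptors and Fc receptors, 6 markers of tissue-resident macrophages, 5 phagocytic and pattern receptors, 2 subunits of the NADPH oxidase, and 2 markers of recruited monocytes and dendritic cells. No measured value entered the choice by its rule, although the genes were picked with earlier results of these data known.

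The 12 libraries came from 4 groups of 3 biological replicates. Early mutants carried the Q455K change of Col8a2 on both alleles and were at most 2 months old, and early wild types were of the same age bound. Late mutants, homozygous for the same change, and late wild types were at least 8 months old. Col8a2 encodes a chain of collagen VIII, a component of the basement membrane under these cells, and the mutant is a model of Fuchs endothelial corneal dystrophy. The change is carried in every cell of the animal, so it is not limited to the endothelium. Early libraries were all labelled batch 1 and late libraries all batch 2, so effects of age and of batch cannot be told apart. The labels used here do not say how many corneas or animals a library pools.

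Macrophages are phagocytes that live in nearly every tissue and are joined in injury by monocytes from the blood. Their survival depends on the receptor CSF1R, which binds the growth factors CSF1 and IL-34, and their gene program is set up by the transcription factor PU.1, the product of Spi1. The adaptors TYROBP and FCER1G carry short signalling motifs called ITAMs and pass on signals from partners such as TREM2 and the Fc receptors, which bind antibody-coated material. In bulk RNA such as this, fewer cells of a type and less RNA per cell cannot be told apart.

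Total counts per library ran from 19722598 to 39431676. In CPM, the count scaled to the adjusted library size, 3 counts correspond to 0.0773 (early wild-type replicate 3) to 0.132 (early wild-type replicate 2). Levels below that were taken as not resolved. Early wild-type replicate 2 stood apart. It was the shallowest library but had reads for 31527 genes, against 19317 to 23208 in the other 11 libraries, and it was the highest early wild-type library for 24 of 36 tested members, where 37.7% of all genes were highest in it. Late wild-type replicate 1 also differed from its group: the mean chi-square per gene against the other late wild types was 234.8 and 236.8, while replicates 2 and 3 differed by 59.1. Without early wild-type replicate 2, Laptm5 and Cd14 gained and Cd52 lost an early call, and Pf4, Cx3cr1 and Cybb gained a late one. Without late wild-type replicate 1, Aif1 gained an early call and Ncf1 a late one. With both left out Fcer1g lost its early call (adjusted p = 0.0658) and Cd84 gained a late one (adjusted p = 0.0446).

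A list of 15 corneal endothelial genes summed to 9230 to 16700 CPM over all libraries, with 0 past the threshold early by edgeR, DESeq2 and limma-voom and 1 higher at an unadjusted p under 0.05. At that unadjusted level 6 were lower and 2 higher in late mutants. Late, 3 fell by edgeR, the cell adhesion molecule Ncam1 (234 ± 36.5 CPM in late mutants, 533 ± 97 CPM in late wild types), the transcription factor Tfap2b (646 ± 22.5 CPM in late mutants, 1360 ± 341 CPM in late wild types) and the sodium pump subunit Atp1b1 (740 ± 37.5 CPM in late mutants, 1450 ± 429 CPM in late wild types), and 1 rose, the carbonic anhydrase Car12 (9.89 ± 1.64 CPM in late mutants, 2.83 ± 1.01 CPM in late wild types; SD, n = 3 each). Among 11 genes of keratocytes, the cells of the corneal stroma, Kera and Lum rose at both ages. The proteoglycan gene Kera averaged 70.8 ± 28.3 CPM in early mutants and 13.1 ± 5.69 CPM in early wild types, and 68.1 ± 20.6 CPM in late mutants and 13.4 ± 3.57 CPM in late wild types. Lum, lumican, averaged 245 ± 119 CPM in early mutants and 52.4 ± 30.3 CPM in early wild types, and 233 ± 101 CPM in late mutants and 52.5 ± 15.9 CPM in late wild types. Angptl7 rose late (adjusted p = 0.0473) and Ptgds fell late (adjusted p = 0.0318). At an unadjusted p under 0.05, 5 of the 11 were higher and 0 lower early, and 8 were higher and 1 lower late. DESeq2 called 2 higher early, and 5 higher and 1 lower late. The median log2 fold change of the list was 0.86 early and 1.12 late. The whole list summed to 23000 to 25900 CPM in early mutants, 19000 to 29000 CPM in early wild types, 21600 to 32700 CPM in late mutants and 21000 to 26400 CPM in late wild types, which overlap. Kera and Lum make up a small part of that sum. The part of stromal tissue in the members' results was not tested. Col8a2 itself was read at 605 to 1740 CPM with no change past the threshold (log2 fold change −0.32, adjusted p = 0.714 early, and −0.08, adjusted p = 0.896 late), where a change of 1 base is not visible in a count.

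The log2 fold change of mutant over wild type was above 0 in 29 of the 36 tested members early and in 35 late, and part of them passed the test. With edgeR's quasi-likelihood test and Benjamini-Hochberg adjustment over 17965 genes at 0.05, 9 of 36 tested members rose in early mutants, where 0.557% of all tested genes rose. In late mutants 22 of 36 rose, where 2.77% of all tested genes rose, and these 22 included all 9 of the early ones. The early count was 4 without early mutant replicate 1, when Lyz2, Cd68, Ms4a7 and Gpnmb were left, and the late count was 14, 13 and 13 without late mutant replicate 1, late mutant replicate 3 and late wild-type replicate 3. Over all genes and both directions, early calls were 51 in that run, against 106 with all libraries. Late calls over all genes were 229, 238 and 364 in those 3 runs, against 983 with all libraries. No member fell at either age, also at an unadjusted p under 0.05 and with DESeq2 and limma-voom, while 0.0334% of tested genes fell early and 2.71% late. The median log2 fold change of the members was 1.14 early and 2.66 late, against −0.11 and 0 over all tested genes. All 3 mutants lay above all 3 wild types for 15 members early, against 10.1% of all genes, and for 33 members late, against 14.9%.

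Per transcript length, the signal was carried by few genes. Summed over the 37 members, the authors' FPKM came to 529, 447 and 248 in early mutants, against 63.3, 83.7 and 53.8 in early wild types. The sums were 392, 495 and 502 in late mutants, against 57.6, 62.6 and 64.1 in late wild types. No mutant library overlapped a wild-type one. Lyz2 alone made up 57.1% to 63.3% of the sum in early mutants and 22.8% to 53.1% in early wild types, and 54.4% to 56.9% in late mutants and 43.3% to 48.7% in late wild types. In late mutants the order of mean FPKM ran from Lyz2 (256 ± 28.9) over Tyrobp (42.7 ± 6.64), Fcer1g (39.7 ± 7.32), Cd52 (22.5 ± 4.38), Gpnmb (12 ± 0.664), Lst1 (11.9 ± 1.71) and Cd68 (11.8 ± 2.23) down to Cd163 (0.00247 ± 0.00427; SD, n = 3 each). Tyrobp and Fcer1g did not differ beyond their spread, and neither did Gpnmb, Lst1 and Cd68.

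**Figure D1:**
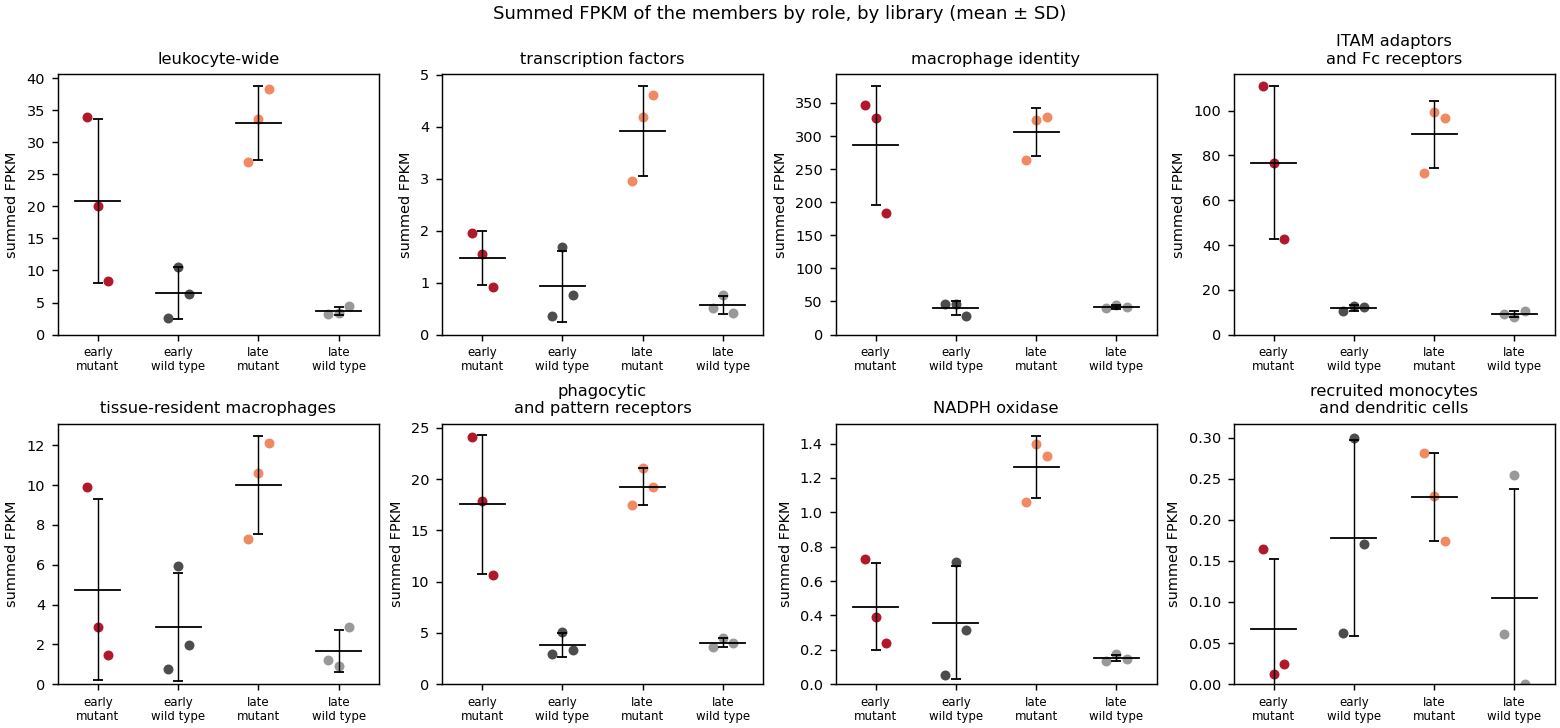
Summed FPKM of the members of each role (y axis, linear, from 0) in each library, with mutants left of wild types within a stage, points for libraries and bars for mean ± SD (n = 3; the lower end of a bar is cut at 0). The macrophage identity sum was 347, 328 and 183 in early mutants and 46, 46.5 and 28.5 in early wild types, while the sum of Ccr2 and Itgax stayed at or below 0.3 in every library.

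Lyz2, lysozyme M of macrophages and neutrophils, was the most abundant member in all 4 groups. It had 344, 301 and 171 CPM in early mutants, against 42.4, 24.2 and 11.6 CPM in early wild types, with a log2 fold change at 3.39 ± 0.40 SE (adjusted p = 0.000158). Late mutants had 243, 238 and 278 CPM, against 24.1, 37.3 and 31.6 CPM in late wild types, with a log2 fold change at 3.03 ± 0.39 (adjusted p = 0.000333). The groups did not overlap at either age, and the mutants were higher by about the same amount. The neighbouring paralog Lyz1 is close in sequence, and reads may be split between them. Lyz1 had 232, 69 and 4 counts in early mutants, against 0, 3 and 0 in early wild types, and 67, 54 and 115 counts in late mutants, against 1, 0 and 4 in late wild types, far fewer than Lyz2 in every library. By edgeR Lyz1 also rose early (adjusted p = 0.0479) and late (adjusted p = 0.0261).

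Cd68, a lysosomal membrane protein of phagocytes, had 15.5, 19.7 and 8.51 CPM in early mutants, against 3.18, 2.2 and 2.06 CPM in early wild types (log2 fold change 2.55 ± 0.38, adjusted p = 0.00122). It had 11.8, 13.4 and 15.8 CPM in late mutants, against 1.74, 3.53 and 3.07 CPM in late wild types (2.30 ± 0.38, adjusted p = 0.00254). Every mutant was above every wild type. Ms4a7, a membrane protein of mature macrophages, had 16, 21.5 and 11.1 CPM in early mutants, against 1.65, 1.63 and 1.55 CPM in early wild types (log2 fold change 3.33 ± 0.38, adjusted p = 0.00013). Late mutants had 14.7, 14.5 and 17.8 CPM of Ms4a7, against 1.38, 3.01 and 3.22 CPM in late wild types (2.63 ± 0.36, adjusted p = 0.000663). Its levels did not overlap between genotypes at either age.

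Tyrobp, the ITAM adaptor also called DAP12, had 34.9, 18.7 and 9.28 CPM in early mutants, against 1.12, 3.74 and 4.97 CPM in early wild types (log2 fold change 2.67 ± 0.47, adjusted p = 0.00658). Late mutants had 20.8, 22.4 and 25.5 CPM, against 3.28, 2.93 and 2.99 CPM in late wild types (2.90 ± 0.48, adjusted p = 0.00266). The early mutants were spread widely and the late ones narrowly, yet all lay above the wild types. Fcer1g, the common γ chain of Fc receptors, had 34.6, 25 and 17.9 CPM in early mutants, against 6.81, 1.67 and 1.03 CPM in early wild types (3.03 ± 0.54, adjusted p = 0.00969). Late mutants had 21.2, 24.4 and 27.2 CPM of Fcer1g, against 1.61, 1.52 and 3.42 CPM in late wild types (3.47 ± 0.56, adjusted p = 0.00266). Both adaptors kept the genotypes apart in every library, although without early mutant replicate 1 the early calls were just lost (adjusted p = 0.0549 for Tyrobp and 0.0535 for Fcer1g). The early call of Tyrobp was also lost by limma-voom, with the early libraries fitted alone and with a replicate block. Over 20 alternatives its early adjusted p ran from 1.06e-10 to 0.126.

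Fcgr3, an activating receptor for IgG that needs Fcer1g, had 17.6, 15.5 and 6.84 CPM in early mutants, against 0.524, 3.47 and 0.722 CPM in early wild types (log2 fold change 3.11 ± 0.59, adjusted p = 0.0162). The highest of those wild types was replicate 2, and without it the log2 fold change was 4.41 (adjusted p = 0.000389). Late mutants had 13.2, 13.9 and 16.5 CPM, against 1.15, 3.45 and 2.21 CPM in late wild types (2.68 ± 0.58, adjusted p = 0.0147). No mutant overlapped a wild type. The early call was lost without early mutant replicate 1 (adjusted p = 0.0807), early wild-type replicate 1 (0.0602) or early wild-type replicate 3 (0.0856), and the late one without late wild-type replicate 3 (0.0571). Fcgr3, Fcgr2b and Fcgr4 are related genes and may share reads. Fcgr4 had 41 counts or fewer in every library. By edgeR Fcgr4 rose late (log2 fold change 5.95, adjusted p = 0.0374) and did not pass early (0.13, adjusted p = 0.974).

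Trem2, a lipid-sensing receptor that signals through Tyrobp, had 7.68, 4.32 and 3.06 CPM in early mutants, against 0.636, 1.23 and 0.773 CPM in early wild types (log2 fold change 2.52 ± 0.46, adjusted p = 0.0105). It had 4.37, 5.86 and 5.5 CPM in late mutants, against 1.08, 1.48 and 1.2 CPM in late wild types (2.06 ± 0.45, adjusted p = 0.0152). Its mutants were all higher at both ages, and the early call was lost without early mutant replicate 1 (adjusted p = 0.14), early wild-type replicate 1 (0.0705) or early wild-type replicate 3 (0.0573). By limma-voom the calls of Trem2 at both ages were lost. Cd52, a small surface glycoprotein of leukocytes, had 13.9, 5.76 and 2.38 CPM in early mutants, against 0.374, 1.1 and 1.31 CPM in early wild types (2.97 ± 0.58, adjusted p = 0.0162). Early mutant replicate 1 was well above the other early libraries for Cd52, and the early call was lost without it (adjusted p = 0.165), without early wild-type replicate 1 (0.0794) and without early wild-type replicate 2 (0.0506), in a range of 7.13e-08 to 0.244 over 20 alternatives. The early call of Cd52 was also lost by limma-voom, with the early libraries fitted alone, with a replicate block and with both libraries that stand apart left out. Late mutants had 9.21, 9.76 and 12.8 CPM, against 0.623, 0.883 and 1.48 CPM in late wild types (3.41 ± 0.59, adjusted p = 0.00395). That late call was lost by limma-voom (adjusted p = 0.0708).

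Gpnmb, a glycoprotein of lipid-loaded macrophages that pigment cells also make, had 64.1, 45.2 and 28.5 CPM in early mutants, against 11.3, 10.2 and 8.04 CPM in early wild types (log2 fold change 2.22 ± 0.31, adjusted p = 0.000786). Late mutants had 48.5, 39.1 and 41.3 CPM, against 8.33, 14.1 and 11.5 CPM in late wild types (1.93 ± 0.31, adjusted p = 0.00247). The genotypes did not overlap for Gpnmb. A list of 9 pigment cell genes without Gpnmb, which includes Pmel and Tyr, summed to 92 to 232 CPM in early mutants and 31 to 44.5 CPM in early wild types, with 0 of 8 tested genes past the threshold by edgeR, 7 higher at an unadjusted p under 0.05 and 2 higher by DESeq2. In the late libraries that sum was 84.4 to 120 CPM in mutants and 11.1 to 128 CPM in wild types, which overlap, and 0 pigment genes had an unadjusted p under 0.05 or were called by DESeq2 or limma-voom. The part of pigment cells in the early Gpnmb result was not tested.

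**Figure D2:**
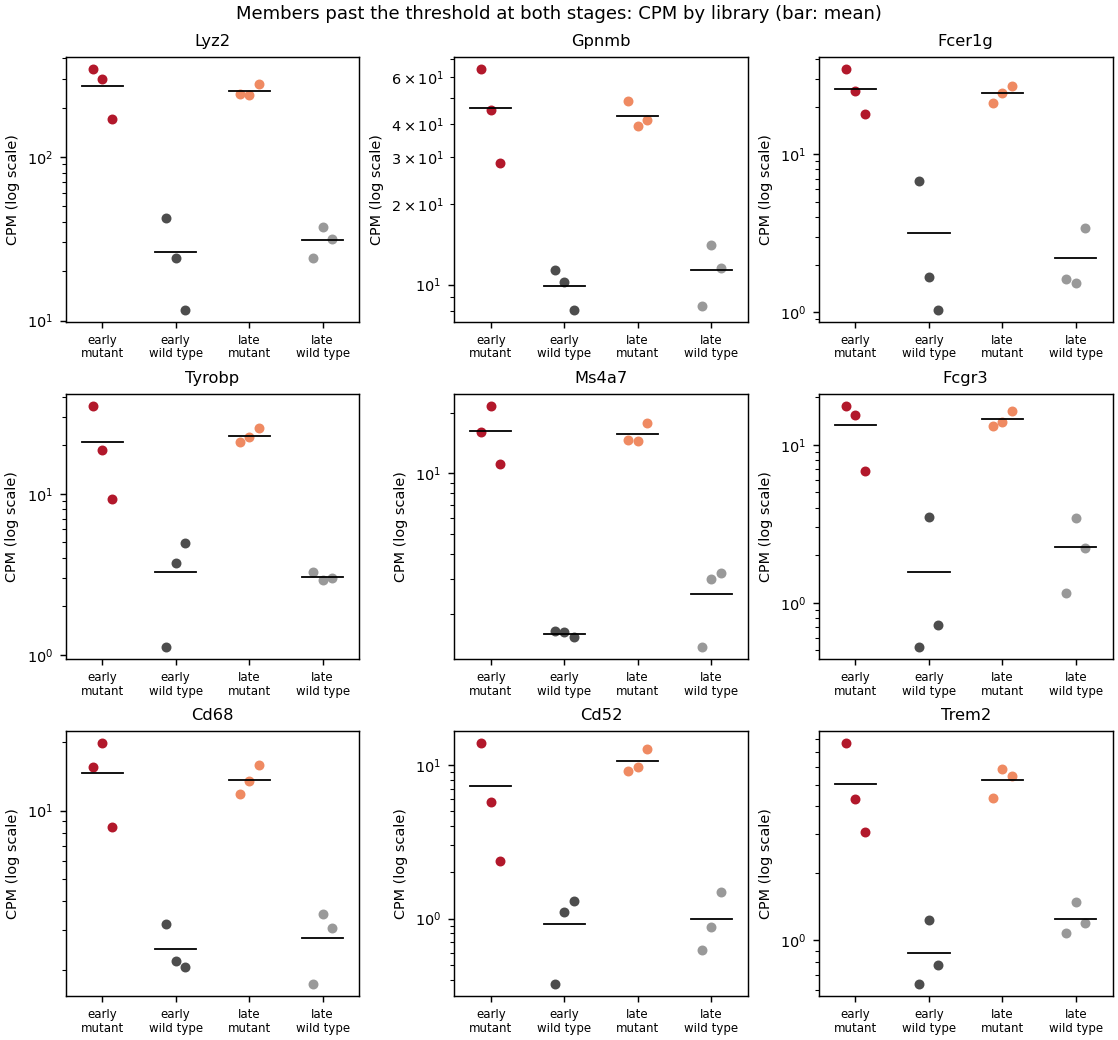
Level in CPM (y axis, logarithmic) in each of the 12 libraries of the 9 members past the threshold at both stages, with mutants left of wild types; points are libraries and the bar is the mean of 3. Every mutant library lies above every wild-type library of its stage in all 9 panels, and early mutants are spread more widely than late mutants.

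The promoters of these 9 genes were read for the binding site of PU.1, because Spi1 is itself a member. RefSeq promoters of GRCm38.p6, which is another build than that of the counts, were held for 28 of the 37 members and 7 of these 9. The site was searched on both strands, from 250 bases before to 50 after each start, as GAGGAAG and as AGGAAGT, which overlap by 6 letters and were chosen after the data had been examined. Either was present in 19.1% of 32851 promoters of the same length and in 13 of the 35 promoters held for the 28 members, which are promoters of 11 genes, and in 3 of the 7 genes that were held. The 250 bases before the annotated start are printed for these 3, in the direction of the gene, with the match in capitals. All 3 matches lie on the strand opposite to the gene, so the capitals show the reverse complement of the letters searched.
Lyz2, chr10:117282273-117282522, minus strand: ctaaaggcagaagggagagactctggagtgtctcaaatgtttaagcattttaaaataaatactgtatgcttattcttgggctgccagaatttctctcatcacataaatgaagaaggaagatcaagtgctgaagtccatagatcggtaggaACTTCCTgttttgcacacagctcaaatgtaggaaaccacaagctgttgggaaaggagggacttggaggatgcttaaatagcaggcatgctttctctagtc
Fcgr3, chr1:171059395-171059644, minus strand: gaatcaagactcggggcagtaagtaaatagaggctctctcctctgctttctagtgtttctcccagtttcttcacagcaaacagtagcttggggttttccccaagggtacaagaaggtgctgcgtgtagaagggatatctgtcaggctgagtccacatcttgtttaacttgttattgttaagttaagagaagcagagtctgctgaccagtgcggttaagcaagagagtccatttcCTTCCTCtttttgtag
Trem2, chr17:48346151-48346400, plus strand: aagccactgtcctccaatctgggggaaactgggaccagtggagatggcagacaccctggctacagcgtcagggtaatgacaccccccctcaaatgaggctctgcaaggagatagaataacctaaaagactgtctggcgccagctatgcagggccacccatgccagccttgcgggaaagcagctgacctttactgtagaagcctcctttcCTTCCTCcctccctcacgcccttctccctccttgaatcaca
The match begins 100 bases before the start in Lyz2, 16 in Fcgr3 and 41 in Trem2. A match is a description of these letters and says nothing of whether the factor binds.

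Spi1 passed the threshold in late mutants, with 2.41, 2.62 and 3.85 CPM, against 0.393, 0.441 and 0.35 CPM in late wild types (log2 fold change 2.89 ± 0.77, adjusted p = 0.035). Early mutants had 2.29, 1.53 and 0.742 CPM, against 0.112, 1.19 and 0.309 CPM in early wild types, which overlap (1.53 ± 0.73, adjusted p = 0.57). Without early wild-type replicate 2 the early value was 2.81 (adjusted p = 0.231). Irf8, an interferon regulatory factor that works with PU.1, had 5.29, 6.28 and 6.99 CPM in late mutants, against 0.787, 2.05 and 0.816 CPM in late wild types (2.35 ± 0.48, adjusted p = 0.0107). The late call of Spi1 was lost without early mutant replicate 1, late mutant replicates 1 or 3, or late wild-type replicates 2 or 3 (adjusted p 0.052 to 0.108), and that of Irf8 under none of these. The late call of Spi1 was also lost by limma-voom, with the late libraries fitted alone and with a replicate block. The early levels of Irf8 were 2.32, 2.05 and 1.79 CPM in mutants and 1.2, 2.46 and 1.65 CPM in wild types, with the groups interleaved (0.22 ± 0.46, adjusted p = 0.865).

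Of the 9 identity genes 3 rose early, Lyz2, Cd68 and Ms4a7 (median log2 fold change of the 9, 1.55), and 8 rose late (median 2.63). Csf1r, the receptor on which macrophages depend, had 8.6, 12 and 12.9 CPM in late mutants, against 1.11, 1.4 and 2.18 CPM in late wild types (log2 fold change 2.83 ± 0.48, adjusted p = 0.00328). Its early levels were 5.63, 3.52 and 3.09 CPM in mutants and 0.936, 3.78 and 2.86 CPM in wild types, which overlap (0.69 ± 0.45, adjusted p = 0.625). The overlap came from early wild-type replicate 2, and the value was 1.10 without it (adjusted p = 0.565).

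Adgre1, which encodes the F4/80 antigen, had 4.06, 3.9 and 4.57 CPM in late mutants, against 0.426, 0.522 and 0.622 CPM in late wild types (log2 fold change 2.99 ± 0.62, adjusted p = 0.0113). It had 1.83, 1.15 and 1.08 CPM in early mutants, against 0.374, 1.58 and 0.464 CPM in early wild types (0.76 ± 0.59, adjusted p = 0.666). The mutant groups were clear of each other as well as of the late wild types. Itgam, the CD11b integrin chain of myeloid cells, had 1.58, 4.82 and 4.4 CPM in late mutants, against 0.262, 0.0401 and 0.777 CPM in late wild types (3.31 ± 0.83, adjusted p = 0.029). In early mutants it had 0.546, 0.601 and 0.68 CPM, against 0.412, 2.15 and 1.6 CPM in early wild types, where the log2 fold change, −1.18 ± 0.77, did not pass (adjusted p = 0.628) and stayed below 0 without early wild-type replicate 2, at −0.72. The late call of Itgam was lost without late mutant replicates 2 or 3 or late wild-type replicate 2 (adjusted p 0.0632 to 0.0831 for the mutants and 0.085 for the wild type). It was also lost with the late libraries fitted alone.

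Aif1, also called Iba1, had 7.63, 8.36 and 10.9 CPM in late mutants, against 1.9, 4.29 and 3.61 CPM in late wild types (log2 fold change 1.46 ± 0.37, adjusted p = 0.0299). Early mutants had 12.2, 8.41 and 7.89 CPM, against 3.44, 3.96 and 2.35 CPM in early wild types; these do not overlap either, but edgeR's test with all libraries was missed (1.55 ± 0.37, adjusted p = 0.0705). That early difference passed by DESeq2 (adjusted p = 0.00633), by limma-voom (0.0387), and by edgeR with no filter (0.0111) or without late wild-type replicate 1 (0.0152), in a range of 0.00633 to 0.468 over the alternatives. Mpeg1, the pore-forming perforin-2 of macrophages, had 2.51, 3.03 and 3.53 CPM in late mutants, against 0.59, 0.762 and 0.738 CPM in late wild types (2.11 ± 0.56, adjusted p = 0.0356). It had 3.82, 4.02 and 1.33 CPM in early mutants, against 0.449, 1.01 and 0.902 CPM in early wild types (1.95 ± 0.55, adjusted p = 0.194 by edgeR and 0.0287 by DESeq2). For Aif1 and Mpeg1 the early and late differences were of about the same size, on either side of the threshold. The late call of Aif1 was lost without late mutant replicates 1 or 3 or late wild-type replicate 3 (adjusted p 0.0629 to 0.0956), and that of Mpeg1 without early mutant replicates 1 or 2, any late mutant, or late wild-type replicates 2 or 3 (0.054 to 0.105). Both late calls were also lost with the late libraries fitted alone and with a replicate block, and that of Mpeg1 by limma-voom. Lst1, a leukocyte transcript of the MHC region, was the identity gene that passed at neither age, with 4.85, 3.63 and 5.54 CPM in late mutants, against 3.54, 2.85 and 2.45 CPM in late wild types (0.66 ± 0.39, adjusted p = 0.269). Early it averaged 4.03 ± 1.42 CPM in mutants and 3.28 ± 0.291 CPM in wild types (SD, n = 3 each).

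All 5 adaptors and Fc receptors rose late (median log2 fold change 3.15), and Tyrobp, Fcer1g and Fcgr3 also rose early (median of the 5, 3.03). Fcgr1, the high-affinity IgG receptor, had 1.44, 1.7 and 2.17 CPM in late mutants, against 0.0328, 0.361 and 0 CPM in late wild types (log2 fold change 3.74 ± 1.03, adjusted p = 0.0396). Early mutants had 1.23, 2.6 and 0.835 CPM, against 0.0374, 0.132 and 0.103 CPM in early wild types (4.04 ± 1.05, adjusted p = 0.118 by edgeR and 0.00445 by DESeq2). By edgeR the early difference passed without late wild-type replicate 2 (0.0259) or replicate 3 (0.0439). The genotypes did not overlap, although most wild-type values lie at or under the level of 3 counts. Fcgr2b, the inhibitory IgG receptor, had 4.3, 4.55 and 4.76 CPM in late mutants, against 0.0328, 1.04 and 0.466 CPM in late wild types (3.15 ± 0.88, adjusted p = 0.0433). It had 1.75, 2.35 and 0.402 CPM in early mutants, against 0.337, 3.34 and 2.22 CPM in early wild types (−0.38 ± 0.80, adjusted p = 0.865). Early, Fcgr1, Fcgr3 and Fcer1g did not overlap between genotypes and Fcgr2b did. The late call of Fcgr1 was lost when any 1 mutant was left out, early or late, or late wild-type replicate 3 (adjusted p 0.0583 to 0.103). That of Fcgr2b was lost without early mutant replicate 1, early wild-type replicate 3, any late mutant or late wild-type replicate 3 (0.0539 to 0.119). By limma-voom the late calls of Fcgr1 and Fcgr2b were lost too. That of Fcgr1 was also lost with the late libraries fitted alone and with a replicate block.

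Among the leukocyte-wide genes 1 of 6 rose early, Cd52, and 4 of 6 rose late (median log2 fold change 2.73). Laptm5, a lysosomal protein of blood cells, had 9.97, 10.1 and 14.1 CPM in late mutants, against 1.74, 2.65 and 1.71 CPM in late wild types (2.49 ± 0.60, adjusted p = 0.0251). Early mutants had 11.7, 14.3 and 3.62 CPM, against 1.27, 7.08 and 1.37 CPM in early wild types (1.63 ± 0.58, adjusted p = 0.4), and without early wild-type replicate 2 the early value was 2.92 and passed (adjusted p = 0.0118). Early wild-type replicate 2 was the highest of its group for Laptm5. The late call was lost without late mutant replicates 1 or 3 or late wild-type replicates 2 or 3 (adjusted p 0.0599 to 0.086), and also by limma-voom.

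Cd53, a tetraspanin of leukocytes, had 3.4, 2.71 and 4.18 CPM in late mutants, against 0.59, 0 and 0.389 CPM in late wild types (log2 fold change 3.36 ± 0.93, adjusted p = 0.0418). It had 1.83, 2.1 and 1.48 CPM in early mutants, against 0.0374, 0.484 and 1.11 CPM in early wild types, with no overlap but no call (1.70 ± 0.87, adjusted p = 0.583). Its late call was lost when any 1 mutant was left out, early or late, or late wild-type replicates 2 or 3 (adjusted p 0.0582 to 0.113), and also with the late libraries fitted alone. Coro1a, an actin-binding protein of leukocytes, had 6.81, 5.98 and 6.9 CPM in late mutants, against 1.38, 2.05 and 2.02 CPM in late wild types (1.85 ± 0.40, adjusted p = 0.0135). Its early levels were 6.26, 4.13 and 4.24 CPM in mutants and 3.52, 6.86 and 3.02 CPM in wild types, which overlap (0.13 ± 0.38, adjusted p = 0.906).

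Ptprc, the pan-leukocyte antigen CD45, passed at neither age by edgeR with all libraries. It had 2.65, 1.7 and 3.27 CPM in late mutants, against 0.525, 0.682 and 0 CPM in late wild types (log2 fold change 2.64 ± 0.98, adjusted p = 0.0993). The late difference passed by DESeq2 (adjusted p = 0.0487) and by edgeR with no filter (0.0273). In early mutants it had 0.519, 0.492 and 0.742 CPM, against 0.15, 1.49 and 3.53 CPM in early wild types (−1.57 ± 0.94, adjusted p = 0.612), and the value was −1.66 without early wild-type replicate 2. Late the genotypes were separate, and early they were not. Cd84, a leukocyte adhesion receptor, averaged 1.71 ± 0.564 CPM in late mutants and 0.237 ± 0.172 CPM in late wild types (SD, n = 3 each), and did not pass by edgeR (adjusted p = 0.105). Early it averaged 0.591 ± 0.578 CPM in mutants and 0.928 ± 1.22 CPM in wild types, and the early log2 fold change, −0.63 ± 0.99, was 1.41 without early wild-type replicate 2.

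Of the 5 phagocytic and pattern receptors, Gpnmb and Trem2 rose at both ages and Cd14 late. Cd14, the co-receptor for bacterial lipopolysaccharide, had 1.82, 2.62 and 3.69 CPM in late mutants, against 0.229, 0.161 and 0.389 CPM in late wild types (log2 fold change 3.37 ± 0.85, adjusted p = 0.029). It had 3.58, 3.25 and 1.58 CPM in early mutants, against 0.0374, 0.791 and 0.0773 CPM in early wild types (3.27 ± 0.84, adjusted p = 0.112). The genotypes did not overlap at either age, and without early wild-type replicate 2 the early difference passed (adjusted p = 0.00557), as it did by DESeq2 with all libraries (0.00576). The late call was lost without late mutant replicates 1 or 3 or late wild-type replicates 2 or 3 (adjusted p 0.055 to 0.0939), and also by limma-voom. Msr1, a scavenger receptor, and Clec7a, which binds fungal β-glucan, stayed low: late mutants had 0.982 to 1.46 CPM of Msr1 and 0.688 to 1.07 CPM of Clec7a, against at most 0.201 CPM of either in late wild types. Neither passed late by edgeR with all libraries (adjusted p = 0.121 for Msr1 and 0.104 for Clec7a), while Clec7a passed by DESeq2 (0.0349) and Msr1 by edgeR with no filter (0.0495). Early, Msr1 averaged 0.594 ± 0.813 CPM in mutants and 0.32 ± 0.522 CPM in wild types, and Clec7a 0.73 ± 0.0173 CPM in mutants and 0.225 ± 0.209 CPM in wild types (SD, n = 3 each), and neither passed.

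Markers of tissue-resident macrophages did not pass the threshold at either age by edgeR with all libraries. Early, 0 of 5 tested passed by edgeR, DESeq2 or limma-voom, and 0 had an unadjusted p under 0.05. Late, 0 of 5 passed by edgeR and limma-voom, 2 had an unadjusted p under 0.05, and these 2, Pf4 and Cx3cr1, passed by DESeq2. Pf4, the chemokine platelet factor 4, had 2.99, 3.03 and 4.34 CPM in late mutants, against 0.393, 0.321 and 0.932 CPM in late wild types (log2 fold change 2.65 ± 0.78, adjusted p = 0.0523). Cx3cr1, the fractalkine receptor, had 5.74, 6.46 and 8.16 CPM in late mutants, against 0.754, 0.401 and 0.894 CPM in late wild types (3.30 ± 0.99, adjusted p = 0.0645). By edgeR both passed without early wild-type replicate 1 (adjusted p = 0.0459 for Pf4 and 0.00317 for Cx3cr1), without early wild-type replicate 2 (0.041 for Pf4 and 0.0334 for Cx3cr1) and with no filter (0.0093 for Pf4 and 4.48e-07 for Cx3cr1). Pf4 also passed without early mutant replicate 1 (0.0455), and Cx3cr1 with the late libraries fitted alone (0.00289). Over all alternatives the adjusted p ran from 0.0093 to 0.148 for Pf4 and from 4.48e-07 to 0.212 for Cx3cr1. Both kept the late genotypes apart, so the missing calls do not show that these levels were alike.

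Early, Cx3cr1 had 5.96, 3.66 and 1.11 CPM in mutants and 0.0374, 6.37 and 2.19 CPM in wild types, with the groups interleaved and widely spread (log2 fold change 0.33 ± 0.89). Pf4 averaged 1.91 ± 2.18 CPM in early mutants and 0.755 ± 0.528 CPM in early wild types (SD, n = 3 each). The classic markers of perivascular and other resident macrophages were low. Mrc1, the mannose receptor, had at most 1.04 CPM in any library. Folr2, a folate receptor, had at most 1.09 CPM and Lyve1, a hyaluronan receptor, at most 0.907 CPM. Late, Mrc1 had 0.963, 0.535 and 1.04 CPM in mutants, against 0.0984, 0.482 and 0.117 CPM in wild types, without overlap. The late log2 fold change of Mrc1 was 1.86 ± 1.08 (adjusted p = 0.262 by edgeR). For Folr2 (0.40 ± 1.26) and Lyve1 (1.47 ± 1.45) the late genotypes overlapped. Cd163, the haemoglobin scavenger receptor, was removed by the low-count filter, with 0, 3 and 0 counts in early mutants, 2, 5 and 0 in early wild types, 1, 0 and 0 in late mutants, and 0, 0 and 11 in late wild types.

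The oxidase subunits and the markers of recruited cells also gave no call by edgeR with all libraries. Cybb, the membrane subunit of the NADPH oxidase, had 3.23, 3.06 and 4.34 CPM in late mutants, against 0.197, 0.963 and 0.699 CPM in late wild types (log2 fold change 2.52 ± 0.77, adjusted p = 0.0591). Ncf1, its cytosolic partner p47phox, had 1.17, 1.43 and 1.04 CPM in late mutants, against 0.229, 0 and 0.0389 CPM in late wild types (3.65 ± 1.31, adjusted p = 0.0915). Both had an unadjusted p under 0.05 late and passed by DESeq2 but not by limma-voom, and Ncf1 passed by edgeR without late wild-type replicate 1 (adjusted p = 0.0291). Cybb passed by edgeR without early wild-type replicate 1 (adjusted p = 0.0466), without early wild-type replicate 2 (0.0334) or with no filter (0.0163). Early, Cybb averaged 1.46 ± 0.912 CPM in mutants and 0.821 ± 0.851 CPM in wild types, and Ncf1 0.48 ± 0.308 CPM in mutants and 0.409 ± 0.357 CPM in wild types (SD, n = 3 each), with overlap in both. Of the 5 other subunits of the oxidase 0 passed by edgeR or limma-voom at either age, 1 early and 3 late were higher at an unadjusted p under 0.05, and DESeq2 called 1 early and 2 late.

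Ccr2, the receptor that brings monocytes out of the blood, had 1.03, 0.506 and 0.615 CPM in late mutants, against 0.229, 0.161 and 0 CPM in late wild types (log2 fold change 2.41 ± 1.35, adjusted p = 0.247). Those genotypes did not overlap, but the levels were low, at or near that of 3 counts in wild types. In early mutants it had 0.601, 0.0273 and 0.0928 CPM, against 0.187, 0.747 and 0.103 CPM in early wild types. Itgax, the CD11c integrin chain of dendritic cells and some macrophages, had the lowest late fold change of all members, with 0.309, 0.357 and 0.162 CPM in late mutants, against 0.0328, 1.12 and 0 CPM in late wild types (−0.47 ± 1.42, adjusted p = 0.856). Neither gene had an unadjusted p under 0.05 or passed by DESeq2 or limma-voom at either age. These p-values do not show that the levels were alike.

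**Figure D3:**
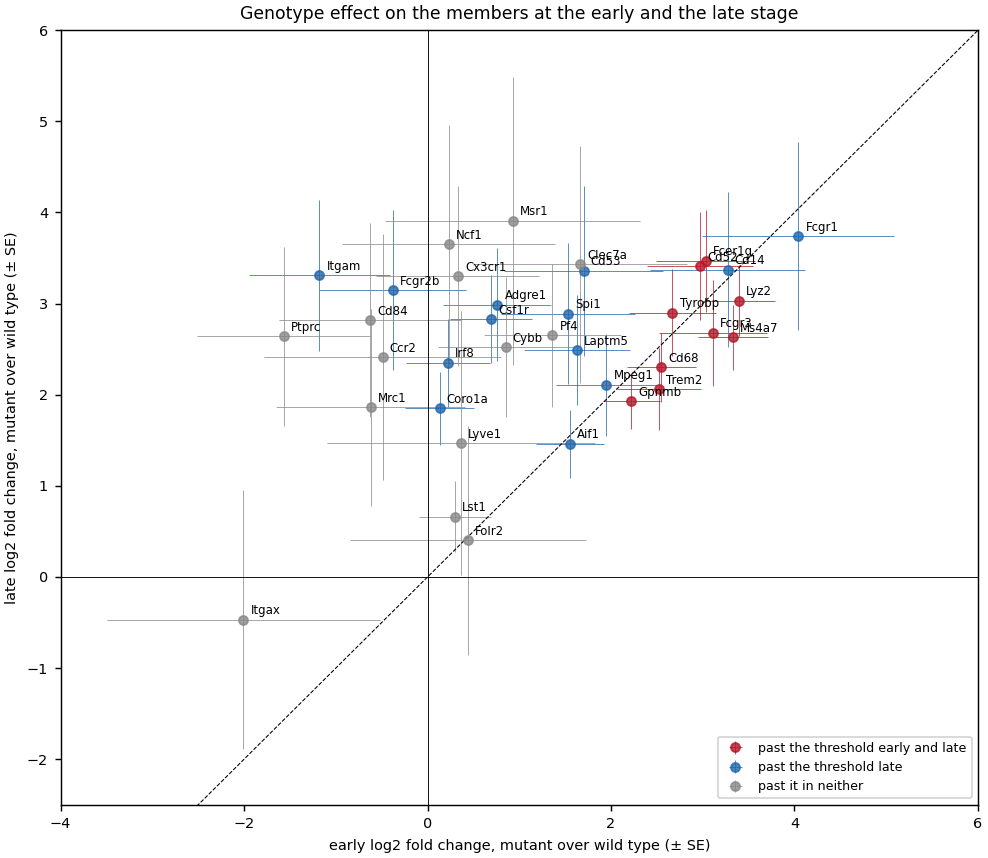
Log2 fold change of mutant over wild type in the early comparison (x axis) and the late comparison (y axis) for the 36 tested members, with SE bars; the dashed line marks equal effects, and colours mark members past the threshold early and late (9), late (13) or in neither (14). The 9 lie close to the line, and 27 of the 36 members lie above it.

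The change of the genotype effect between the stages was then compared member by member, over libraries that do not overlap between the early and the late comparison. The late log2 fold change was the larger in 27 of 36 members. Across the 36 members the early and late values had a Pearson correlation of 0.38 and a Spearman rank correlation of 0.32, as a description of genes that share their libraries. For the 9 members past the threshold at both stages the difference late minus early ran from −0.70 to 0.44. In these 9 the mutants' own change between the stages, late over early, was −0.11 to 0.52. For the 13 past the threshold late, late minus early ran from −0.30 to 4.49, and for the 14 past it in neither from −0.04 to 4.21. The members were sorted by the same early and late tests, so the sorting itself shapes these ranges.

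By edgeR no member had an interaction past the threshold, where 0% of all genes rose and 0.00557% fell. An unadjusted p under 0.05 was reached by 9 of 36, all with the larger effect late, where 6.12% of all genes had that direction and 5.08% the opposite one. They were Ptprc, Coro1a, Cd84, Irf8, Csf1r, Adgre1, Itgam, Fcgr2b and Cx3cr1. DESeq2 called 1 member, where it called 314 genes over all, and limma-voom 0, where it called 91. The smallest p was that of Itgam (4.49 ± 1.13, adjusted p = 0.125 by edgeR), followed by Csf1r (2.14 ± 0.64, adjusted p = 0.189 by edgeR). A larger late effect in these members is therefore not established at the threshold used.

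**Figure D4:**
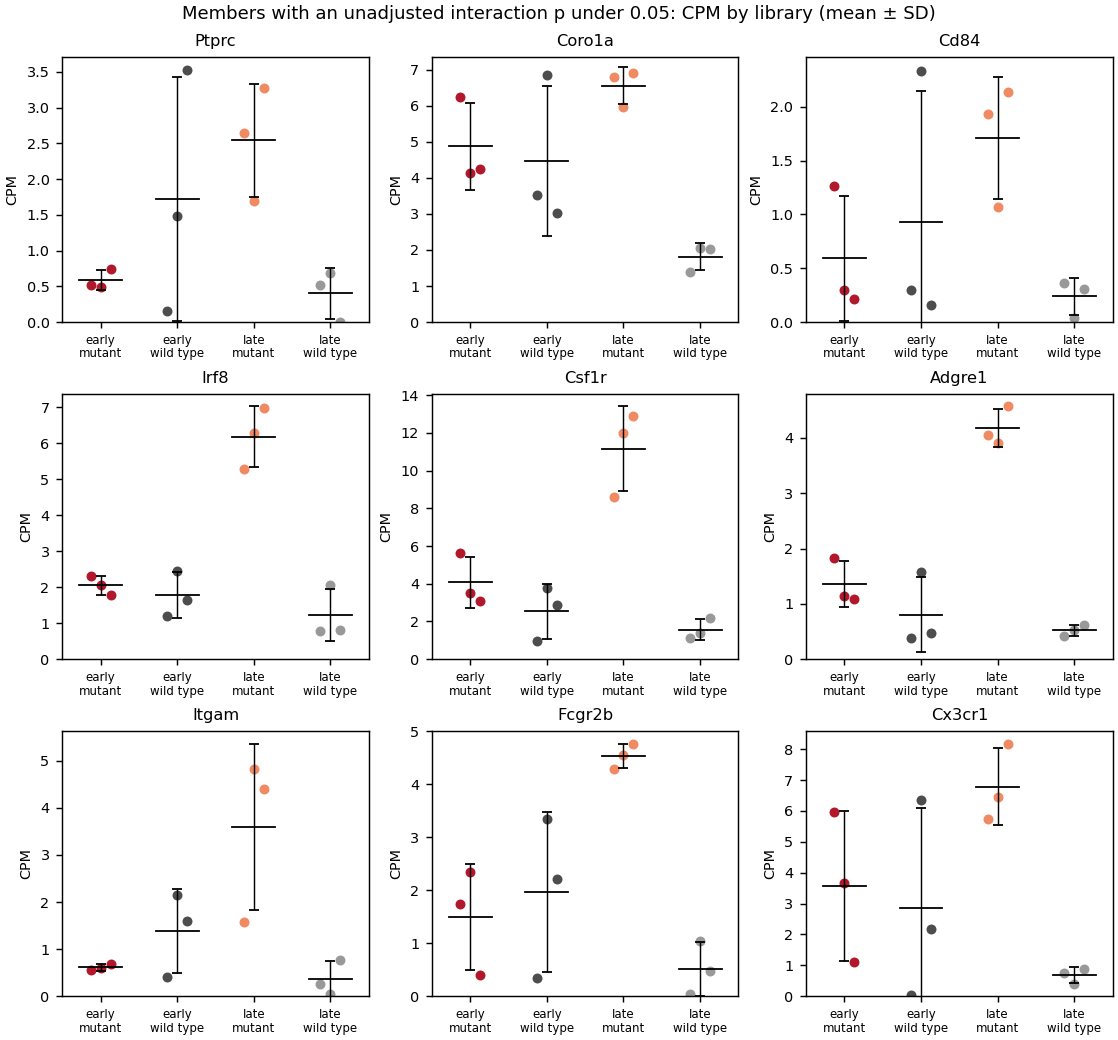
Level in CPM (y axis, linear, from 0) by library of the 9 members with an unadjusted interaction p under 0.05, none of which passed after adjustment; mutants are left of wild types, points are libraries and bars are mean ± SD (n = 3, the lower end cut at 0). Late mutants lie above late wild types in every panel, and in 8 of the 9 panels early wild-type replicate 2 is the highest early wild-type library.

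Within genotypes, late against early, no member passed in mutants or in wild types by edgeR, where 0% of all genes passed in either direction. In mutants 5 of 36 were higher late at an unadjusted p under 0.05, against 4.12% of genes, and 0 were lower, against 2.42%. DESeq2 called 0 members, where it called 23 genes over all, and limma-voom 5, where it called 299. In wild types 4 of 36 were lower late at an unadjusted p under 0.05, against 2.1% of genes, and 0 higher, against 1.93%, and DESeq2 and limma-voom called 0. Csf1r averaged 11.1 ± 2.25 CPM in late mutants and 4.08 ± 1.36 CPM in early mutants (SD, n = 3 each), with no overlap (log2 fold change 1.45 ± 0.45, adjusted p = 0.715). Coro1a averaged 1.81 ± 0.379 CPM in late wild types and 4.46 ± 2.09 CPM in early wild types, again with no overlap (−1.29, unadjusted p = 0.0041, adjusted p = 1). Any difference between stages is also one between batches.

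Early wild-type replicate 2 bore on the early comparison as a whole. Without it the median log2 fold change of the members was 2.12, the median of all genes was −0.01, and 32 of 36 members were above 0, where 29 were with all libraries. The value was the larger without it in 30 of 36 members. The count past the threshold was 10, against 0.405% of all genes: Laptm5 and Cd14 came in, and Cd52 was lost (adjusted p = 0.0506). Ptprc, Itgam, Itgax and Mrc1 stayed below 0. Late wild-type replicate 1 bore less on the members: without it 23 passed, the median was 2.73 and the median of all genes 0.27, while the share of all genes that rose was 11%.

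**Figure D5:**
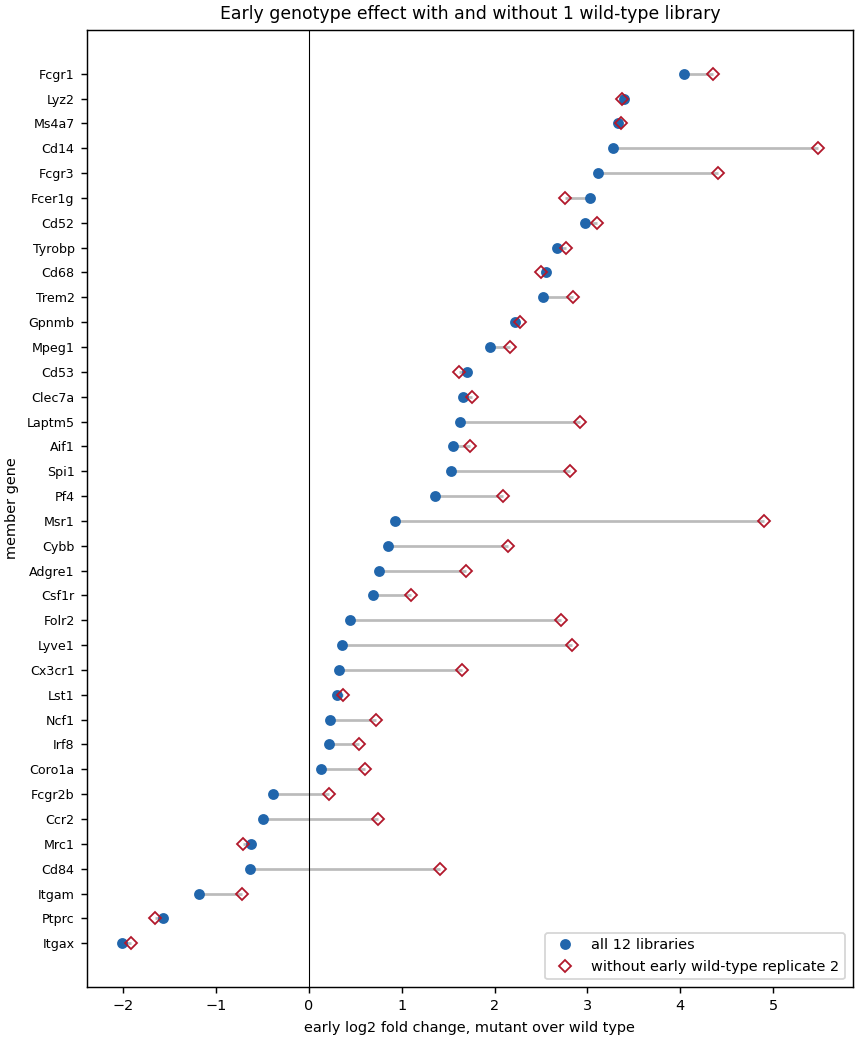
Early log2 fold change, mutant over wild type (x axis), of the 36 tested members (rows) with all 12 libraries (filled circles) and without early wild-type replicate 2 (open diamonds). Lyz2, Ms4a7, Cd68 and Gpnmb hardly move, while Msr1, Lyve1, Folr2, Cd14 and Cd84 move by more than 2.

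For the members, replicates were spread most widely in early wild types and least in late mutants. The median coefficient of variation of the members was 46.6% in early mutants and 73.6% in early wild types, where all genes had 21.4% and 33.6%. It was 19.7% in late mutants and 47% in late wild types, where all genes had 28% and 42.4%. Early mutant replicate 1 was the highest early mutant for 23 of 36 members, where 34.1% of all genes were highest in it. Early mutant replicate 3 was the lowest for 27 members, where 29.7% of all genes were lowest in it. In the late mutants replicate 3 was the highest for 29 members, where 26.3% of all genes were highest in it.

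Genes that surround the members were described from lists of the same pathways, which were also chosen with earlier results known. Of the macrophage growth factors, 0 of 6 tested passed early by edgeR, DESeq2 and limma-voom (2 higher at an unadjusted p under 0.05), and 1 passed late, Csf1, with 25.1 ± 2.52 CPM in late mutants and 12.1 ± 1.38 CPM in late wild types (log2 fold change 1.06 ± 0.31, adjusted p = 0.0499). Il34, the other CSF1R ligand, averaged 174 CPM in late mutants and 89.6 CPM in late wild types and did not pass (0.96, adjusted p = 0.089). Of 14 ITAM signalling genes 0 passed early by edgeR (1 higher and 1 lower at an unadjusted p under 0.05, 1 higher by DESeq2, 0 by limma-voom) and 2 rose late, the adaptor Lat2 (4.64 ± 0.571 CPM in late mutants, 1.12 ± 0.578 CPM in late wild types, adjusted p = 0.0297) and the actin bundler Lcp1 (4.79 ± 0.978 CPM in late mutants, 1.19 ± 0.374 CPM in late wild types, adjusted p = 0.0299).

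Of 16 other myeloid transcription factors 2 rose early and 4 late by edgeR, with a median log2 fold change of 0.17 early and 1.66 late. At an unadjusted p under 0.05, 5 were higher and 2 lower early, and 9 were higher and 1 lower late. DESeq2 called 2 higher early, and 8 higher and 1 lower late. By limma-voom 2 were higher early and 3 late. Cebpd averaged 51 ± 25.2 CPM in early mutants and 6.42 ± 0.84 CPM in early wild types (adjusted p = 0.00013), and 48.3 ± 6.7 CPM in late mutants and 5.07 ± 1.05 CPM in late wild types (adjusted p = 5.3e-05). Cebpb rose at both ages (adjusted p = 0.0162 early and 0.00775 late). Irf5 (adjusted p = 0.027) and Ikzf1 (adjusted p = 0.0499) rose late. Ikzf1 was low and widely spread, with 18, 6 and 64 counts in late mutants and 1, 0 and 1 in late wild types. Its early direction was the opposite, with 1, 0 and 0 counts in mutants and 11, 14 and 8 in wild types. That early log2 fold change was −4.94 ± 1.52 (adjusted p = 0.26 by edgeR). Both C/EBP factors are also made by many cells that are not myeloid. Among 16 genes of the lipid-handling and phagocytic state 4 rose early and 9 late, and Ctss, Lgals3, Lpl and Cd74 had the smallest p late and were the 4 of the early stage. Lgals3, galectin-3, averaged 125 ± 23.2 CPM in early mutants and 25.7 ± 2.43 CPM in early wild types, and 117 ± 11.5 CPM in late mutants and 21.9 ± 2.58 CPM in late wild types.

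Of 10 other resident-macrophage genes 0 passed early by any of the 3 tools (2 higher at an unadjusted p under 0.05). Late by edgeR 1 rose, Gas6, and 1 fell, Cbr2. At an unadjusted p under 0.05, 5 were higher and 1 lower late. DESeq2 called 3 higher and 1 lower late, and limma-voom 2 higher and 1 lower. The median log2 fold change of the 10 was −0.39 early and 1.23 late. Gas6 averaged 193 ± 31.5 CPM in late mutants and 97 ± 18.1 CPM in late wild types, and Cbr2 28.6 ± 1.78 CPM in late mutants and 66.5 ± 17.8 CPM in late wild types. Both were far more abundant than most identity genes here, also in wild types. Of 8 microglial genes 3 rose late, Olfml3, Tmem119 and P2ry13, while Sall1, which defines microglia, had at most 1 count in any late library. Of 7 classical monocyte genes Thbs1 rose late (453 ± 73.3 CPM in late mutants, 202 ± 73.7 CPM in late wild types, adjusted p = 0.0297), a gene that many cells make. At an unadjusted p under 0.05 these 7 had 1 higher and 1 lower early, and 2 higher late. DESeq2 called 0 early and 2 late, and limma-voom 1 at each age. Ms4a6c averaged 1.69 ± 0.281 CPM in late mutants and 0.248 ± 0.0654 CPM in late wild types (adjusted p = 0.0727 by edgeR). Ly6c2, which defines classical monocytes, had 14 counts or fewer in every library.

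Other blood cells and neighbouring tissues were looked for in the same way. Of 9 neutrophil genes Ltf rose at both ages (2.64 ± 0.453 CPM in early mutants and 0.267 ± 0.267 CPM in early wild types, 2.80 ± 0.478 CPM in late mutants and 0.362 ± 0.074 CPM in late wild types) and Camp late, with 12, 36 and 44 counts in late mutants and 0, 1 and 0 in late wild types. At an unadjusted p under 0.05, 3 neutrophil genes were higher and 1 lower early, and 7 were higher late (median log2 fold change of the 9, −0.28 early and 3.68 late). DESeq2 called 1 early and 5 late, and limma-voom 1 at each age. Ly6g, which defines neutrophils in mice, had 0 counts in every mutant library, and the neutrophil list summed to 4.92 to 6.68 CPM in early mutants, 0.928 to 6.2 CPM in early wild types, 8.49 to 11.8 CPM in late mutants and 0.35 to 4.98 CPM in late wild types. Since neutrophils also make lysozyme M, Tyrobp and Fcer1g, their part in those results was not tested. By edgeR 0 genes passed at either age for T and NK cells, B and plasma cells, mast cells, dendritic cells, patrolling monocytes, platelets, red blood cells, and lymphatic or blood vessel endothelium. At an unadjusted p under 0.05 each of these lists had at most 3 genes in either direction, and DESeq2 called at most 2.

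Retinal and lens genes were present too. A list of 14 photoreceptor genes summed to 131 to 257 CPM in early mutants and 36.2 to 61.3 CPM in early wild types, with 2 past the threshold by edgeR, Pde6b and Prph2, 11 higher at an unadjusted p under 0.05, 7 by DESeq2 and 1 by limma-voom. It summed to 91.5 to 221 CPM in late mutants and 70.8 to 101 CPM in late wild types, with 0 past the threshold by edgeR, 6 higher and 1 lower at an unadjusted p under 0.05, 3 by DESeq2 and 1 by limma-voom. The lens list summed to 2020 to 2610 CPM in early mutants, 2200 to 3910 CPM in early wild types, 2040 to 2540 CPM in late mutants and 2140 to 4140 CPM in late wild types. Of its 10 tested genes 0 passed early by any of the 3 tools (3 lower at an unadjusted p under 0.05). Late the crystallins Cryaa (125 ± 24.3 CPM in late mutants, 31.2 ± 3.46 CPM in late wild types) and Cryba1 (35.3 ± 13.6 CPM in late mutants, 9.34 ± 3.1 CPM in late wild types) rose, and DESeq2 and limma-voom each called 2 higher and 2 lower. A list of 10 corneal epithelial genes summed to 38.7 to 329 CPM in early mutants, 33.5 to 95.9 CPM in early wild types, 54.6 to 151 CPM in late mutants and 22.4 to 332 CPM in late wild types, and 0 passed at either age by edgeR (1 higher early, and 2 higher and 1 lower late, at an unadjusted p under 0.05; 1 lower late by DESeq2). The part of such neighbouring tissue in the members' results was not tested.

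The authors' deposited table of the early comparison lists 12 of the 37 members as higher at a q under 0.05, the 9 above together with Aif1, Fcgr1 and Cd14, and none as lower, where 1.52% of its genes are higher. The authors' deposited table of the late comparison lists 26 members as higher and none as lower, where 3.53% of its genes are higher. These 26 are 21 of the 22 above and Cx3cr1, Pf4, Msr1, Cybb and Ncf1, and Aif1 misses the threshold there (log2 fold change 1.36, q = 0.053). For the resident markers, the authors' deposited table gives a late log2 fold change of 3.24 for Cx3cr1 (q = 8.2e-07) and 2.57 for Pf4 (q = 0.0079). These tables were made from the same libraries and are no independent check.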

How the data were processed

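RNA of 12 corneal endothelium libraries was sequenced as paired ends, from a kit that keeps the strand, per the labels' protocols. Tools named without versions in the submitters' processing notes are fastp, HISAT2, HTSeq and DESeq2, with the build GRCm39; the annotation, the strand setting and whether batches were adjusted were not given in the sources used here. Raw read counts per gene and FPKM values were deposited by the authors. The authors also deposited their results for the early and the late comparison with q-values and p-values beside the fold ratio and the log2 fold change. FPKM were used only to order genes by level and for sums.

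Counts were tested with edgeR 4.0.16 (R 4.3.3): TMM scaling, filterByExpr, robust quasi-likelihood fit of all 12 libraries (8 residual degrees of freedom), contrasts early, late, their difference, and late over early per genotype, with Benjamini-Hochberg adjustment over 17965 genes at 0.05. CPM are TMM-scaled; SE come from the F statistic. Total counts limit precision to 3 counts, which covers counting error only. The script was tested on simulated data. Groups and replicate numbers came from the labels. Same-numbered libraries did not deviate together (correlations −0.09 to 0.08), and replicates were not copies (mean chi-square per gene 48.1 to 236.8). Each library is labelled a biological replicate.

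The members and gene lists were chosen with earlier results of these data known. Every member is accounted for, and members past the threshold have every library's value. Of the other lists up to 4 genes past the threshold with the smallest p are named, and any gene of a list with 3 or fewer past it. A gene left out of 1 list is not reported here. Alternatives were DESeq2 size factors, DESeq2's Wald test (1.42.0), limma-voom with sample weights (3.58.1), no filter, 5 CPM in 3 libraries, the compared libraries alone, a replicate block, and leaving out each library or both that stand apart. The letters searched in promoters were chosen after the data had been examined.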

Additional observations from a re-analysis of the deposited data

How the results depend on the processing

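Of 1392 re-computed fold changes of members, 1238 kept their direction and side of the threshold, 86 lost a call, 44 gained one and 24 turned, none of the turned ones with an adjusted p under 0.05. Lyz2, Cd68, Ms4a7 and Gpnmb kept both calls under all 20 alternatives, and Tyrobp, Fcer1g, Csf1r, Adgre1, Irf8 and Coro1a kept the late call under every alternative that could test them. The early count of 9 was 4 to 10 when 1 library was left out and 7 to 13 otherwise. Early calls over all genes, 106 with all libraries, were 51 to 179 when 1 library was left out and 91 to 361 otherwise. The late count of 22 was 13 to 25 when 1 library was left out, 14 with 5 CPM in 3 libraries, which left 15 members to test, and 14 with limma-voom, where the cause was not tested. Elsewhere it was 17 to 28, with 27 when both libraries that stand apart were out. Late calls over all genes, 983 with all libraries, were 229 to 3909 when 1 library was left out. They were 954 with 5 CPM in 3 libraries, 1728 with limma-voom, and 4371 when both libraries that stand apart were out. The interaction called 4 members without a filter, where 297 genes were called over all, and 1 by DESeq2, where 314 were. The mutants' stage comparison called 5 members by limma-voom, where 299 genes were called over all. The cause was not tested. The labels do not say that equal replicate numbers share an animal, and such libraries did not deviate together. With a replicate block 8 members passed early, 18 late and 0 for the interaction, where 106, 456 and 2 genes were called over all.

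Early log2 fold changes turned in 11 members when 1 library was left out, and none of these had an early call. Their ranges were −0.07 to 0.60 for Coro1a, −1.79 to 1.41 for Cd84, −0.86 to 0.22 for Fcgr2b, −1.40 to 0.01 for Mrc1, −0.10 to 2.72 for Folr2, −0.20 to 2.83 for Lyve1, −0.16 to 2.09 for Pf4, −0.23 to 1.65 for Cx3cr1, −1.18 to 4.90 for Msr1, −0.38 to 0.72 for Ncf1 and −2.42 to 0.75 for Ccr2. With both libraries that stand apart out, Cd84 was 1.41, Fcgr2b 0.22 and Ccr2 0.75. The largest value of Fcgr2b, Cd84, Ccr2, Folr2, Lyve1, Pf4, Cx3cr1, Msr1, Ncf1 and Coro1a was that without early wild-type replicate 2. Late, Folr2 ran from −0.02 to 2.02 and Itgax from −1.03 to 3.72, and Itgax was 1.01 with limma-voom and 1.48 with the replicate block. The cause was not tested. Depth limits the resident and recruited markers, many of which had 3 counts or fewer in some library.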

Other observations

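Early mutant replicate 3 was the lowest of its group over several gene groups. In early mutant replicates 1, 2 and 3 the members' summed FPKM was 529, 447 and 248, the pigment list summed to 232, 129 and 92 CPM, and the photoreceptor list to 236, 257 and 131 CPM. The corneal endothelial list summed to 16700, 12000 and 15200 CPM in the same libraries, with replicate 2 the lowest. With 3 libraries no relation can be tested.

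A list of 6 lymphatic endothelial genes, which includes Prox1 and Pdpn, summed to 517 to 576 CPM in early mutants and 412 to 908 CPM in early wild types, and to 603 to 1300 CPM in late mutants and 276 to 758 CPM in late wild types. Lyve1, which marks that endothelium as well as resident macrophages and is not in the list, was below 1 CPM in every library.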
